A study of Homo sapiens with 9 samples.

Results

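The genes of the NMDA receptor, with GRIN2B at their head, were followed across 3 groups of TCam-2 cells. The 7 genes that encode its subunits (GRIN1, GRIN2A, GRIN2B, GRIN2C, GRIN2D, GRIN3A and GRIN3B) were taken by symbol out of 63856 genes in the deposited tables, and each symbol matched 1 row. GRIN2B had been selected on its high level in the ESX1 samples, so its differences between ESX1 and the control groups are given as a description, with no test. TCam-2 is a human seminoma line, a testicular germ cell tumour line with features of early germ cells. WT cells carried no modification. NC cells received the px335_G2P vector with gRNAs that are nonspecific for the human genome. ESX1 cells received 3 px335_G2P vectors with gRNAs for the ESX1 promoter together with PB-TRE-dCas9-VPR, a doxycycline-inducible, cutting-deficient Cas9 joined to transcriptional activators (CRISPRa). The study's methods name the dCas9-VPR plasmid for the ESX1 mixture and do not name it for NC. Transfected cells were kept in puromycin and doxycycline for 72 h and were harvested as a mixed population in which some cells were not transfected. Each group had 3 biological replicates, and ribosome-depleted total RNA was sequenced in read pairs. In such bulk samples, more cells with a transcript and more transcript per cell cannot be told apart.

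The 9 libraries held between 5212804 and 10644408 counted fragments, and the shallowest was ESX1 replicate 3. Mitochondrial genes took 19.2% to 19.9% of the counts in ESX1, 14.5% to 15.3% in NC and 17% to 18.3% in WT, and the part of this difference in the results was not tested. ESX1, the activated homeobox gene on chromosome X, stood at 3.6, 4.08 and 3.13 normalized CPM (CPM, a gene's count relative to the total of its library, scaled with TMM factors) in WT, at 3.63, 2.89 and 3.46 in NC, and at 57, 55.7 and 31.4 in the ESX1 samples. The 10 seminoma identity genes all passed the count filter, and their summed level was 3987 to 4865 normalized CPM in WT, 3033 to 3259 in NC and 1736 to 2098 in ESX1.

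NMDA receptors are glutamate-gated cation channels of excitatory synapses that let calcium into the cell. A channel forms around GRIN1, the obligatory subunit that binds the co-agonist glycine or D-serine, and is completed by GRIN2 subunits, which bind glutamate, or by GRIN3 subunits, which bind glycine. GRIN2B is the GRIN2 subunit of the developing forebrain, and in the adult brain much of its place is taken by GRIN2A. In non-neuronal cells many neuronal genes are held low by the repressor REST.

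GRIN2B (ENSG00000273079.5) lies on the minus strand at chr12:13437942-13981957 (GRCh38), a span of 544016 bases with 30941 exon bases in 20 merged exon blocks. RefSeq (GRCh38.p14) lists 3 start sites for it, at 13982134, 13981602 and 13980845, which are 532 and 757 bases apart. The 250 bases before the upstream and the middle start sites are shown, since ESX1 is a homeodomain protein and the core letters that many homeodomains recognise, TAAT on either strand, are a feature that can be read there. Capitals mark those letters. The 3 windows share no base with a GRIN2B exon of the count table.

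GRIN2B upstream start, chr12:13982135-13982384, minus strand: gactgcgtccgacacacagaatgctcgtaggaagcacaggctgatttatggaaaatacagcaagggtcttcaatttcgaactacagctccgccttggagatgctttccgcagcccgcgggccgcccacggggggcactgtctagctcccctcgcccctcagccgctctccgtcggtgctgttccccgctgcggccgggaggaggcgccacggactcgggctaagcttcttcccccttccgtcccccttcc
GRIN2B middle start, chr12:13981603-13981852, minus strand: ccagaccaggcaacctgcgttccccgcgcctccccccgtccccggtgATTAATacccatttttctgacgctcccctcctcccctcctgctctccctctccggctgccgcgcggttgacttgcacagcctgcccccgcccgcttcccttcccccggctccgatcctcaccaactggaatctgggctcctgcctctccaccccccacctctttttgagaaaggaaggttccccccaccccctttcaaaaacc

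The upstream window held no TAAT on either strand. The middle window held 2 overlapping matches, the first of which began 203 bases before the start site, and the window of the third start site (chr12:13980846-13981095) held none. TAAT on either strand occurred in 47.4% of 35116 RefSeq windows of 250 bases on the main chromosomes, so its presence in 1 of 3 windows is near the background. The longer palindrome TAATTA occurred in 4.35% of all windows and in none of the 3 windows of GRIN2B, and the letters TATAAA, found in 10.7% of all windows, were absent as well. The GRIN2B windows were GC-rich, with 63.6%, 64.4% and 72.4% G or C against a median of 58% over all windows, and held 21, 14 and 33 CG dinucleotides against a median of 11. Promoter windows were listed for 5 of the 7 genes. Of the other 4 genes, GRIN2D had 1 TAAT match, 7 bases before its start, and GRIN2A, GRIN3A and GRIN3B had none.

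GRIN2B was weakly counted in untreated cells and led its family in the ESX1 cells. Its counts were 14, 12 and 13 in the WT samples, 45, 50 and 40 in NC, and 988, 870 and 355 in ESX1. As normalized CPM this was 1.53, 1.75 and 1.36 in WT, 4.66, 5.36 and 4.07 in NC, and 100.2, 87.5 and 65.6 in ESX1. The 3 groups did not overlap, and the lowest ESX1 sample was the shallowest library, which was also the lowest of its group for ESX1 itself.

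**Figure D1:**
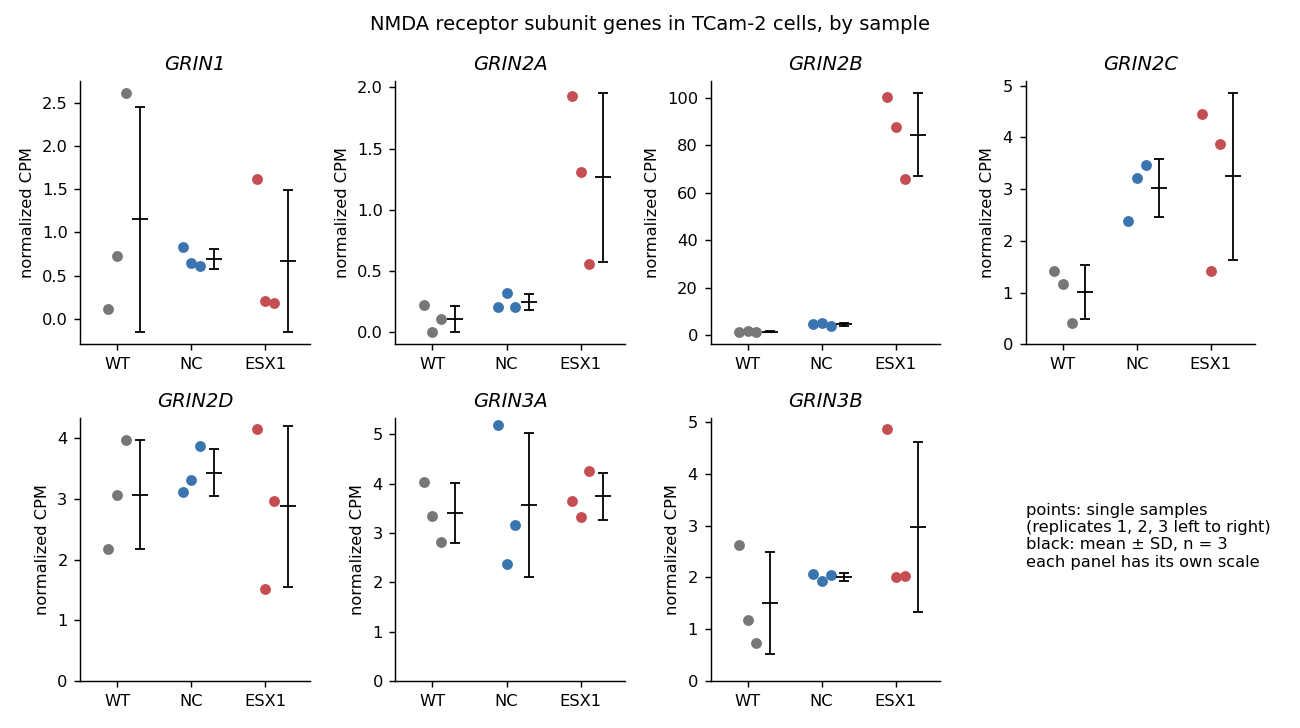
Normalized CPM (linear axis, a separate scale in each panel) of the 7 subunit genes in each sample, by group, with the replicates in order and the mean ± SD of 3 samples in black. GRIN2B lay between 65.6 and 100.2 in ESX1 and below 5.4 in all other samples, whereas no other subunit passed 5.2 in any sample.

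The group means of GRIN2B were 1.55 ± 0.196 normalized CPM in WT, 4.70 ± 0.645 in NC and 84.4 ± 17.5 in ESX1 (SD, n = 3). The fitted log2 fold change was 4.17 (SE 0.194) between ESX1 and NC, an 18.0-fold higher level, and 5.78 (SE 0.228) between ESX1 and WT, a 54.9-fold higher level. These values belong to the contrasts on which the gene had been selected and carry no test. In both contrasts it ranked 21 from the top among 18452 tested genes by fold change. The WT level was 1.83% and the NC level 5.57% of the ESX1 level. Leaving out each sample in turn moved the log2 fold change between 4.03 and 4.33 for ESX1 against NC and between 5.64 and 5.96 for ESX1 against WT.

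GRIN2B was also upregulated in the cells with nonspecific gRNAs in comparison to untreated cells. NC exceeded WT by 1.61 on the log2 scale (95% interval 1.05 to 2.17), or 3.05-fold, with an adjusted p of 0.000601 in the quasi-likelihood test of edgeR, corrected by Benjamini-Hochberg over all tested genes. Each of the 3 NC samples lay above each of the 3 WT samples, and the call was made in 9 of 9 fits that left out 1 sample, with log2 fold changes of 1.52 to 1.72. With limma on the authors' log2 values, which compress low levels, the difference was 0.80 (adjusted p = 0.00294), below the 2-fold threshold. In this contrast GRIN2B ranked 455 of 18452 genes. The WT and NC libraries also stood in the contrasts that selected the gene, so this result is not independent of the selection.

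The 2 genes that share exon bases with GRIN2B were nearly uncounted. RP11-4N23.1 and RP11-4N23.4, both on the opposite strand, shared 263 and 546 bases with its exons, and together they had 1 count in the 9 samples. The table was counted without regard to strand, so fragments from a gene and its antisense partner cannot be told apart.

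**Figure D2:**
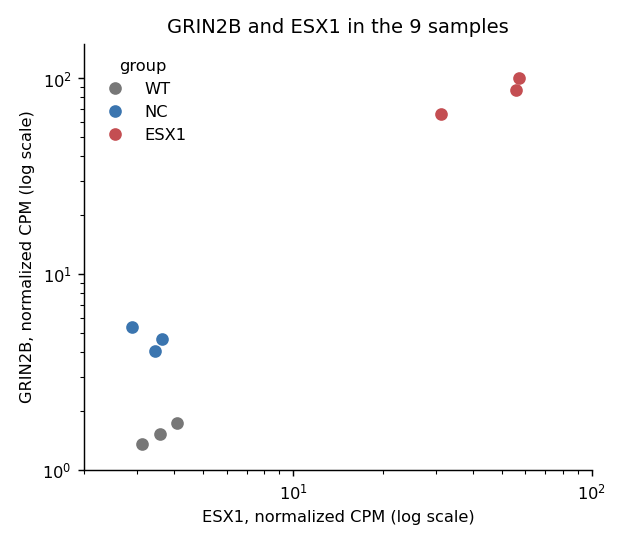
GRIN2B against ESX1 in the 9 samples, both in normalized CPM on logarithmic axes, coloured by group. WT and NC samples overlapped in ESX1 (2.89 to 4.08) but were separate in GRIN2B (1.36 to 1.75 and 4.07 to 5.36), and the ESX1 samples were high in both genes.

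Between NC and WT, where GRIN2B differed, ESX1 did not pass the threshold between NC and WT (log2 fold change −0.10, 95% interval −0.70 to 0.49, adjusted p = 0.837 in the same edgeR test).

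GRIN1, without which no NMDA receptor channel forms, had very few counts in all groups. It had 1, 5 and 25 counts in WT, 8, 6 and 6 in NC, and 16, 2 and 1 in ESX1. WT replicate 3 and ESX1 replicate 1 were the high samples, and the groups overlapped. GRIN1 (chr9:137138390-137168762) did not pass the count filter. Its ratio between ESX1 and NC, from summed counts, was 1.09 (exact 95% interval 0.548 to 2.14, counting error only), and the two-sided exact permutation test on the 3 against 3 samples gave p = 1. For ESX1 against WT the ratio was 0.622 (0.332 to 1.14) with an exact permutation p of 0.7, and for NC against WT it was 0.573 (0.31 to 1.04) with p = 0.8.

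The level of GRIN2B relative to this obligatory partner differed widely between samples. Per kb of exon, GRIN2B stood at 0.522 and 0.113 times the level of GRIN1 in WT replicates 2 and 3 and at 3.04 times in WT replicate 1, at 1.22 to 1.81 times in NC, and at 13.4, 94.6 and 77.2 times in the 3 ESX1 samples. These ratios rest on as few as 1 count of GRIN1.

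GRIN2A, the GRIN2 subunit that predominates in adult forebrain, was barely counted. The counts were 2, 0 and 1 in WT, 2, 3 and 2 in NC, and 19, 13 and 3 in ESX1. In normalized CPM the ESX1 samples (1.93, 1.31 and 0.554) lay above the NC samples (0.207, 0.322 and 0.204) and the WT samples (0.218, 0 and 0.104). The ratio of ESX1 to NC was 5.71 (2.5 to 15.2, counting error only), and that of ESX1 to WT was 11.8 (3.73 to 60.2). The exact permutation test gave p = 0.1 for both, which is the smallest value that 3 against 3 samples allow. GRIN2A (chr16:9753404-10182754) did not pass the count filter. In a fit without the filter, edgeR's quasi-likelihood test gave a log2 fold change of 2.35 with an adjusted p of 0.162 for ESX1 against NC, and of 3.36 with an adjusted p of 0.0073 for ESX1 against WT. NC and WT overlapped, with a ratio of 2.07 (0.473 to 12.4) and an exact permutation p of 0.3.

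**Figure D3:**
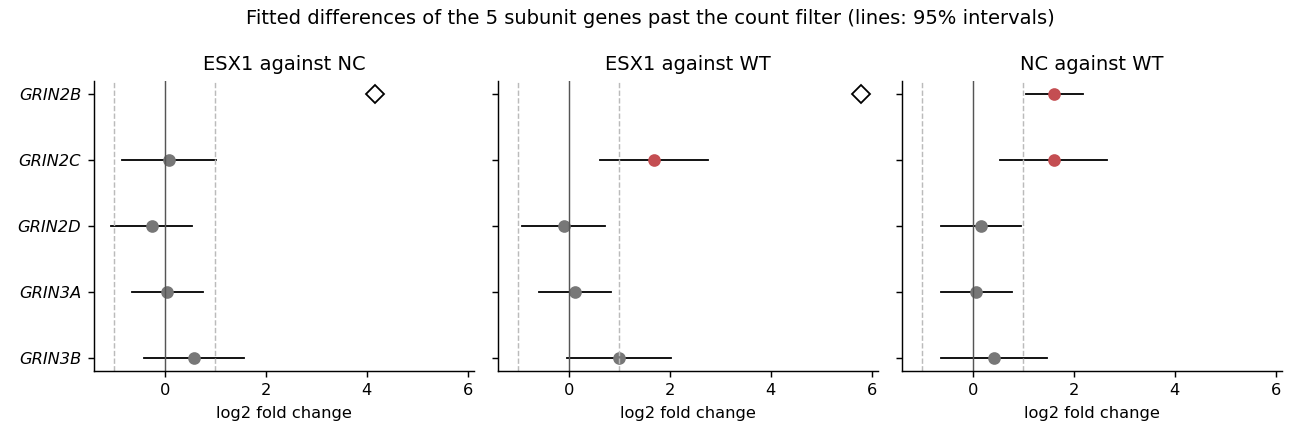
Log2 fold changes of the 5 subunit genes past the count filter in the 3 contrasts, with 95% intervals and dashed lines at a 2-fold change. Red points were called, grey points were not, and the open diamonds are the GRIN2B differences that selected the gene, drawn without interval. GRIN2C and GRIN2B moved by like amounts between NC and WT (1.60 and 1.61).

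Of the 7 subunit genes, 5 passed the count filter, and a gene was called at an adjusted p below 0.05 with at least a 2-fold change. Between ESX1 and NC, 0 of the 4 tested members other than GRIN2B were called in edgeR, 0 had an unadjusted p below 0.05, and DESeq2 called 0, where 1.08% of all tested genes were called higher and 0.699% lower. Between ESX1 and WT, 1 of the 4 was called higher and 0 lower (6.78% and 4.77% of all genes). Between NC and WT, 2 of the 5 members were called higher and 0 lower (3.12% and 2.15% of all genes). These 2 were GRIN2B, chosen on contrasts that held the same WT and NC libraries, and GRIN2C. GRIN2C, also the member called between ESX1 and WT, passed the filter through the transfected groups. The counts against WT therefore give no support to a change of the family.

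GRIN2C (chr17:74842023-74861504), a GRIN2 subunit best known from the cerebellum, was the member called in both contrasts with untreated cells. It stood at 1.42, 1.17 and 0.418 normalized CPM in WT, at 2.38, 3.22 and 3.46 in NC, and at 4.46, 1.41 and 3.88 in ESX1. All NC samples lay above all WT samples, whereas ESX1 replicate 2 lay at the WT level. The log2 fold change was 1.60 (SE 0.503, adjusted p = 0.0367) for NC against WT and 1.69 (SE 0.508, adjusted p = 0.0192) for ESX1 against WT in edgeR, with Benjamini-Hochberg correction. Between ESX1 and NC it was 0.09 (95% interval −0.85 to 1.02, adjusted p = 0.96). Before normalization the gene reached the filter's minimum of 1.08 CPM in 1 WT sample and in all NC and ESX1 samples, so that it passed through the transfected groups. These calls rested on 25 counts over the WT group, and with limma on the log2 values the differences were 0.70 and 0.71, below 2-fold. The call of ESX1 against WT was lost without WT replicate 3 (1.28, adjusted p = 0.0828), ESX1 replicate 1 (1.33, adjusted p = 0.104) or ESX1 replicate 3 (1.59, adjusted p = 0.0583). The call of NC against WT was lost without WT replicate 2 (1.71, adjusted p = 0.0763), WT replicate 3 (1.20, adjusted p = 0.143), NC replicate 1 (1.76, adjusted p = 0.0551), NC replicate 2 (1.57, adjusted p = 0.0902) or NC replicate 3 (adjusted p = 0.109).

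GRIN2D (chr19:48394875-48444931), the GRIN2 subunit of embryonic brainstem and of interneurons, showed no call in any contrast. It was measured at 2.18, 3.06 and 3.97 normalized CPM in WT, at 3.11, 3.32 and 3.87 in NC, and at 4.16, 1.51 and 2.96 in ESX1, and the 3 groups overlapped. The log2 difference was −0.26 between ESX1 and NC (95% interval −1.06 to 0.54), −0.10 between ESX1 and WT (−0.92 to 0.71) and 0.16 between NC and WT (−0.63 to 0.95), with adjusted p-values of 0.814, 0.874 and 0.809 in edgeR.

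The glycine-binding subunits likewise passed no threshold. GRIN3A (chr9:101569353-101738580) stood at 4.04, 3.35 and 2.82 normalized CPM in WT, at 5.18, 2.36 and 3.16 in NC, and at 3.65, 3.32 and 4.25 in ESX1. Its log2 differences were 0.05 for ESX1 against NC (95% interval −0.65 to 0.76), 0.12 for ESX1 against WT (−0.60 to 0.84) and 0.07 for NC against WT (−0.64 to 0.78). Its group means were 3.4, 3.57 and 3.74 normalized CPM, and the ranges of the 3 groups overlapped.

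GRIN3B (chr19:1000419-1009732) stood at 2.62, 1.17 and 0.731 normalized CPM in WT, at 2.07, 1.93 and 2.04 in NC, and at 4.87, 2.01 and 2.03 in ESX1. WT replicate 1 and ESX1 replicate 1 stood apart from their groups. The log2 difference was 0.59 between ESX1 and NC (95% interval −0.40 to 1.57, adjusted p = 0.606), 0.99 between ESX1 and WT (−0.04 to 2.02, adjusted p = 0.14) and 0.41 between NC and WT (−0.64 to 1.46, adjusted p = 0.62) in edgeR. Without WT replicate 1 the difference of ESX1 against WT was called (1.69, adjusted p = 0.0258). Before normalization GRIN3B reached the filter's minimum of 1.08 CPM in 1 WT sample and in all NC and ESX1 samples. It thus passed through the transfected groups, and this call gives no support to a change. GRIN3B shares 85 exon bases, 2.59% of its length, with TMEM259 on the opposite strand, which had 350 to 685 counts per sample, and fragments of the 2 genes cannot be told apart there.

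**Figure D4:**
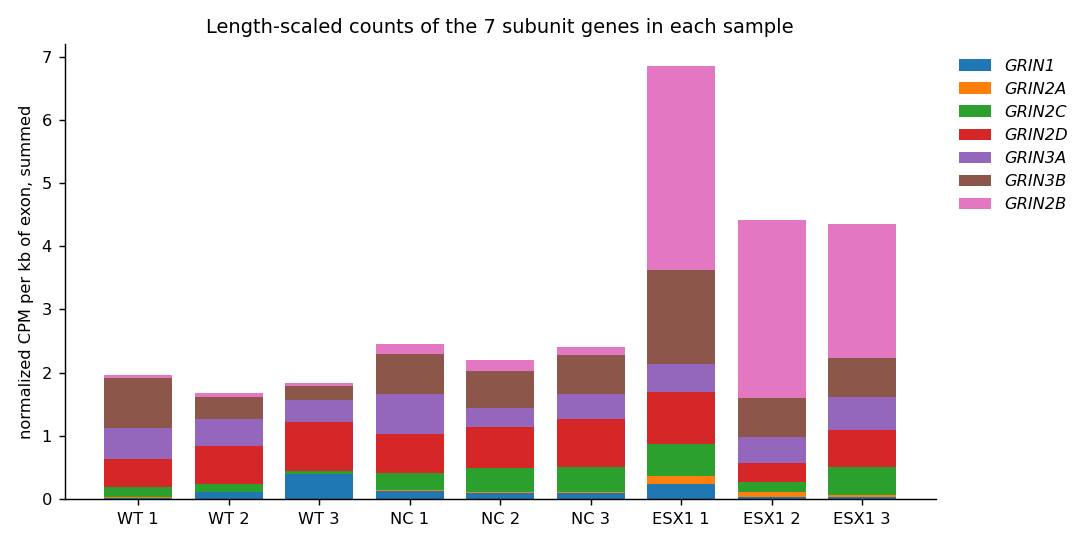
Normalized CPM per kb of exon, stacked over the 7 subunit genes, in each of the 9 samples (linear axis from 0). GRIN2B, at the top of each bar, took 2.39% to 3.38% of the sum in WT, 5.47% to 7.9% in NC and 47.2% to 64% in ESX1.

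Scaled by exon length, the order of the subunit means differed between the groups. In WT the mean level was 0.603 ± 0.175 normalized CPM per kb for GRIN2D, 0.459 ± 0.302 for GRIN3B, 0.419 ± 0.0753 for GRIN3A, 0.171 ± 0.194 for GRIN1, 0.117 ± 0.0607 for GRIN2C, 0.0499 ± 0.00634 for GRIN2B and 0.00645 ± 0.00654 for GRIN2A (SD, n = 3). The ranges of the first 3 overlapped. GRIN2B was sixth of the 7 genes by its mean. Its range (0.0439 to 0.0565) lay within that of GRIN1 (0.0162 to 0.388) and overlapped that of GRIN2C (0.0487 to 0.166), so this place is not resolved.

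In NC the levels per kb were 0.674 ± 0.0767 for GRIN2D, 0.613 ± 0.0227 for GRIN3B, 0.439 ± 0.179 for GRIN3A, 0.352 ± 0.0658 for GRIN2C, 0.152 ± 0.0208 for GRIN2B, 0.103 ± 0.0175 for GRIN1 and 0.0146 ± 0.00402 for GRIN2A. The NC ranges of GRIN2D, GRIN3B and GRIN3A overlapped, and that of GRIN3A also overlapped that of GRIN2C. In ESX1 GRIN2B led with 2.73 ± 0.566 normalized CPM per kb, and its lowest sample (2.12) lay above the highest sample of any other subunit (1.48, GRIN3B). Behind it followed GRIN3B (0.905 ± 0.501), GRIN2D (0.564 ± 0.26), GRIN3A (0.46 ± 0.058) and GRIN2C (0.379 ± 0.189), then GRIN1 (0.0995 ± 0.123) and GRIN2A (0.0756 ± 0.0412). The range of GRIN2D overlapped those of GRIN3B, GRIN3A and GRIN2C, whereas GRIN3B (0.613 to 1.48) lay above GRIN3A (0.409 to 0.523) and GRIN2C (0.164 to 0.52). Without GRIN2B the summed level per kb was 1.61 to 1.92 in WT, 2.02 to 2.29 in NC and 1.59 to 3.63 in ESX1. The ESX1 range spanned both control groups, and NC lay above WT.

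The genes around GRIN2B on chromosome 12 were examined next. Within 1 Mb of the gene 65 others were listed and 26 were tested, and between ESX1 and NC 1 was called higher and 0 lower, where 1.08% and 0.699% of all tested genes were. That gene was GPRC5A, an orphan receptor gene first known as retinoic acid-induced, 520.0 kb beyond the 3′ end of GRIN2B, with means of 27 ± 11 normalized CPM in WT, 41.1 ± 2.89 in NC and 113 ± 41.9 in ESX1. Its log2 fold change was 1.45 against NC (adjusted p = 0.00234) and 2.05 against WT (adjusted p = 1.71e-05) in edgeR. ATF7IP, the nearest tested gene beyond the 5′ end at 384 kb, differed by −0.15 on the log2 scale between ESX1 and NC (adjusted p = 0.602).

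**Figure D5:**
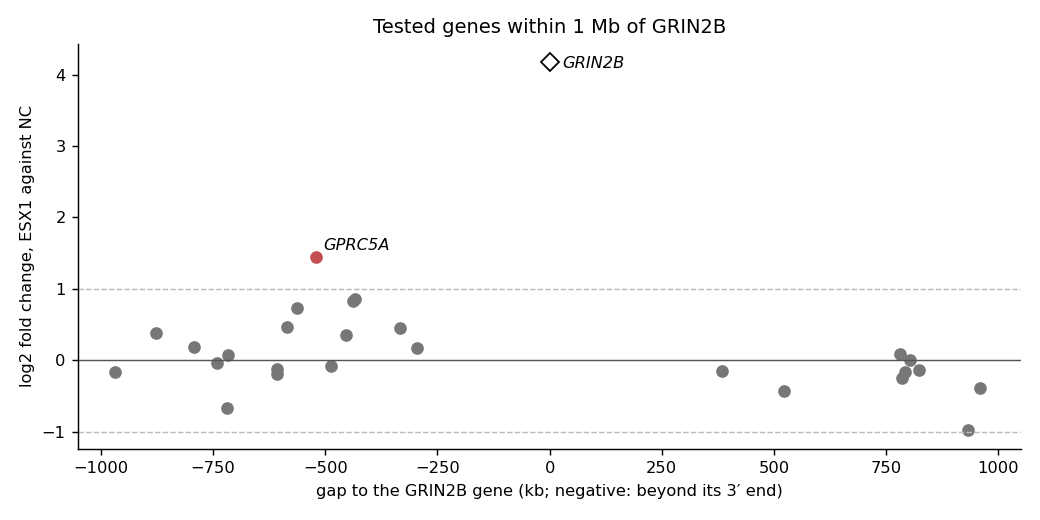
Log2 fold change of ESX1 against NC for the 26 tested genes within 1 Mb of GRIN2B, by their gap to the gene in kb, with negative values beyond its 3′ end. GPRC5A (1.45, red) was called, the other 25 (grey) were not, and GRIN2B (4.17) is the open diamond.

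Against WT, 3 of these 26 genes were called higher and 2 lower, beside 6.78% and 4.77% of all tested genes. The higher ones were GPRC5A, DUSP16 (a MAP kinase phosphatase, log2 fold change 1.21) and HEBP1 (a haem-binding protein, 1.19), and the lower ones were PLBD1 (−1.51) and the histone gene HIST4H4 (−1.08). The call of HEBP1 was lost without WT replicate 3 (0.99, adjusted p = 0.0203), since the change then fell short of 2-fold. That of HIST4H4 was lost without WT replicate 2 (−0.98), WT replicate 3 (−0.97) or ESX1 replicate 3 (−0.94). Between NC and WT only PLBD1 was called among the 26 (3.12% of all tested genes were higher and 2.15% lower), with −1.08, and this was lost without WT replicate 3 (−0.98) or NC replicate 3 (−0.98). EMP1, an epithelial membrane protein gene 218 kb beyond the 3′ end that did not pass the filter, had means of 0.0972, 0.587 and 1.83 normalized CPM in WT, NC and ESX1.

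The genes whose log2 level followed GRIN2B most closely over the 9 samples lay on other chromosomes or far away on chromosome 12. RRAGD, a Rag GTPase of the amino acid sensing pathway, had a Pearson r of 0.9956 and means of 2.62 ± 0.576, 5.49 ± 0.874 and 56.1 ± 7.53 normalized CPM in WT, NC and ESX1. PAPPA, a protease that cleaves IGF binding proteins, followed with 0.9851, the T-box gene TBX2 with 0.9845, the metalloprotease inhibitor TIMP3 with 0.9811 and the scaffold gene IQGAP2 with 0.9811. ADAM19, SYT10, RIOK2 and RNU6-1 came next, with r of 0.9768 to 0.9786. The samples fall into separate groups, so these values are a description with no test. In WT, NC and ESX1, TBX2 had means of 0, 0.278 and 2.98 normalized CPM, SYT10 of 0.205, 0.348 and 2.26, and RNU6-1 of 0, 0.208 and 2.2. These genes passed the filter only through the ESX1 samples, where GRIN2B was chosen as high, so their r gives no support to a link. ESX1 itself ranked 41 of 18451 genes with 0.96. The other tested subunits ranked far lower. GRIN3B had an r of 0.60 with GRIN2B, GRIN2C of 0.55, GRIN3A of 0.18 and GRIN2D of −0.23.

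The other ionotropic glutamate receptor genes (AMPA, kainate and delta receptors) held no gene called between ESX1 and NC. Of 11 genes 8 were tested, and between ESX1 and NC edgeR called 0, with 1 at an unadjusted p below 0.05, while DESeq2 called 0. Their median log2 fold change was −0.23, where that of all tested genes was 0.00. Of all tested genes 1.08% were called higher and 0.699% lower in this contrast, and 6.78% and 4.77% between ESX1 and WT. Against WT, GRIA4, an AMPA receptor subunit, was lower in ESX1 (log2 fold change −1.47, adjusted p = 0.0191) in edgeR. The call of GRIA4 was lost without WT replicate 2 (−1.18, adjusted p = 0.102) or ESX1 replicate 1 (−1.37, adjusted p = 0.0623). GRIK5, a kainate receptor subunit named here after its values were seen, had the unadjusted result, with a log2 difference of 1.39 between ESX1 and NC and an adjusted p of 0.187.

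Of the 8 metabotropic glutamate receptor genes 5 were tested and edgeR called 0 in each contrast. For ESX1 against NC, ESX1 against WT and NC against WT, 2, 2 and 1 had an unadjusted p below 0.05, and 1, 1 and 0 an adjusted p below 0.05. That gene was GRM4, named here after its values were seen. It was lower in ESX1, by −0.67 against NC (adjusted p = 0.0143) and −0.65 against WT (adjusted p = 0.00357) in edgeR, under 2-fold. Of all tested genes 1.08%, 6.78% and 3.12% were called higher and 0.699%, 4.77% and 2.15% lower. DESeq2 called 0, 0 and 1. GRM5 had no count in any sample.

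Genes whose products anchor, transport or read out the NMDA receptor were mostly measured, 31 of 34. Between ESX1 and NC 2 were called lower and 0 higher, beside 0.699% and 1.08% of all tested genes. PTPN5, the striatal phosphatase STEP that acts on the GRIN2B protein, stood at 7.93 ± 0.454 normalized CPM in WT, 3.4 ± 0.586 in NC and 1.21 ± 0.37 in ESX1, and NETO1, an auxiliary receptor protein, at 6.15 ± 1.75, 5.76 ± 0.479 and 2.13 ± 0.692. The log2 fold change between ESX1 and NC was −1.46 (adjusted p = 0.0176) for PTPN5 and −1.41 (adjusted p = 0.0161) for NETO1 in edgeR. Neither call held in all fits that left out 1 sample. PTPN5 lost it without NC replicate 2 (−1.46, adjusted p = 0.0596), NC replicate 3 (−1.33, 0.099), ESX1 replicate 2 (−1.26, 0.0658) or ESX1 replicate 3 (−1.41, 0.066), and NETO1 without NC replicate 3 (−1.33, 0.0864), ESX1 replicate 1 (−1.22, 0.0691) or ESX1 replicate 3 (−1.32, 0.0727).

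Against WT, 5 scaffold, transport and signalling genes were higher and 6 lower in ESX1, and 3 were higher and 1 lower in NC, out of 31 tested. Of all tested genes 6.78% were higher and 4.77% lower in ESX1, and 3.12% were higher and 2.15% lower in NC. KIF17, the kinesin that carries GRIN2B-containing vesicles in dendrites, was upregulated in NC by 2.03 on the log2 scale (adjusted p = 0.0128) and in ESX1 by 1.83 (adjusted p = 0.0158). It stood at 0.437, 0.875 and 0.94 normalized CPM in WT, at 4.35, 2.25 and 2.65 in NC, and at 4.46, 2.01 and 1.29 in ESX1, so that both transfected groups lay above WT. No WT sample reached the filter's minimum, which KIF17 passed only through the transfected groups where it was high. Its calls therefore give no support to a change of the list. DLGAP1, a postsynaptic density scaffold, rose by 1.77 in NC (adjusted p = 0.00084) and 1.44 in ESX1 (adjusted p = 0.00225). CAMK2B, a kinase subunit that docks on the receptor, rose by 1.38 (adjusted p = 0.0208) and 1.57 (adjusted p = 0.00618). PTPN5 was lower than in WT in both groups, with log2 fold changes of −1.22 in NC and −2.68 in ESX1 and adjusted p-values of 0.00665 and 1.13e-05 in edgeR.

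Several of these calls were lost when 1 sample was left out. That of KIF17 was lost without NC replicate 1 in NC (1.71, adjusted p = 0.0729), and without WT replicate 1 (1.54, adjusted p = 0.0542) or ESX1 replicate 1 (1.17, adjusted p = 0.145) in ESX1. That of CAMK2B in NC was lost without WT replicate 2 (1.32, adjusted p = 0.0715), WT replicate 3 (1.33, 0.0638), NC replicate 1 (1.35, 0.0647) or NC replicate 3 (1.38, 0.0586). The calls against WT held in 9 of 9 fits that left out 1 sample for DLGAP1 in NC, CAMK2B in ESX1 and PTPN5 in both groups. With limma on the authors' log2 values, PTPN5 in NC (−0.76) and CAMK2B in ESX1 (0.76) fell short of a 2-fold change.

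Among 27 genes for the supply and clearance of glutamate, glycine and D-serine, 20 were tested. Between ESX1 and NC 1 was called higher and 0 lower. Against WT 4 were called higher and 1 lower in ESX1, and 2 higher and 0 lower in NC, out of these 20. The shares of all tested genes were 1.08% higher and 0.699% lower for ESX1 against NC, 6.78% and 4.77% for ESX1 against WT, and 3.12% and 2.15% for NC against WT. The gene called between ESX1 and NC was SLC1A2, the main glial glutamate transporter. It stood at 1.09, 0.729 and 0.836 normalized CPM in WT, at 1.04, 0.965 and 0.916 in NC, and at 3.75, 2.62 and 3.51 in ESX1. Before normalization SLC1A2 reached the filter's minimum in 0 WT, 1 NC and 3 ESX1 samples, so that it passed only through the group where it was high, and its call gives no support to a change of the list. Its log2 fold change was 1.74 against NC (adjusted p = 0.0229) and 1.86 against WT (adjusted p = 0.00354) in edgeR. The call against NC was lost without NC replicate 1 (1.79, 0.0786), NC replicate 2 (1.73, 0.0937), NC replicate 3 (1.71, 0.103), ESX1 replicate 1 (1.62, 0.0973) or ESX1 replicate 3 (1.71, 0.08), where the second value is the adjusted p. SLC6A9, the glycine transporter GlyT1, and SLC1A4, a serine and alanine transporter, were higher in both transfected groups. SLC6A9 rose by 1.30 in NC (adjusted p = 0.00237) and 1.36 in ESX1 (adjusted p = 0.000849), and SLC1A4 by 1.18 (adjusted p = 0.000484) and 1.44 (adjusted p = 3.01e-05) in edgeR. SRR, serine racemase, which makes D-serine, stood at 1.26, 2.08 and 1.8 normalized CPM in WT, NC and ESX1 and was not called, and DAO, which degrades it, had no count. The gene called lower was GLDC, the glycine decarboxylase of the glycine cleavage system, which is named here after its values were seen. It stood at 478 ± 58.6, 296 ± 11.3 and 211 ± 30.8 normalized CPM in WT, NC and ESX1, with a log2 fold change of −1.18 between ESX1 and WT (adjusted p = 2.64e-06 in edgeR).

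REST, the repressor of neuronal genes outside neurons, stood at 285 ± 45.5 normalized CPM in WT, 178 ± 28.6 in NC and 158 ± 11.4 in ESX1. Its log2 difference was −0.17 between ESX1 and NC (adjusted p = 0.611), −0.85 between ESX1 and WT (adjusted p = 0.00023) and −0.68 between NC and WT (adjusted p = 0.00291) in edgeR, so that against WT its adjusted p passed 0.05 in both transfected groups while the change stayed under 2-fold. Of REST and its corepressors, 14 genes in all and all tested, edgeR called 0 between ESX1 and NC, with 3 at an unadjusted p below 0.05, and DESeq2 called 0. Against WT, RCOR2 alone was called, lower in ESX1 (log2 fold change −1.42, adjusted p = 0.00103 in edgeR). At an adjusted p below 0.05 stood 6 of the 14 in ESX1 and 5 in NC. Their median log2 fold change against WT was −0.22 in ESX1 and −0.17 in NC, beside 0.01 for all tested genes. Of all tested genes 1.08% were called higher and 0.699% lower between ESX1 and NC, 6.78% and 4.77% between ESX1 and WT, and 3.12% and 2.15% between NC and WT.

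Genes that mark neurons were not called between ESX1 and NC. Of 16 neuron markers 9 were tested, and between ESX1 and NC edgeR called 0, with 0 at an unadjusted p below 0.05, and DESeq2 called 0. Their summed level was 40.7 to 56.4 normalized CPM in WT, 59.5 to 66.4 in NC and 58.4 to 63.2 in ESX1, and NEUROD1 had no count. RBFOX3, the NeuN gene, which reached the filter's minimum in 1 WT sample and in all NC and ESX1 samples, was called higher in ESX1 than in WT (1.85, adjusted p = 0.0163 in edgeR), which was lost without WT replicate 1 (1.39, 0.0554), WT replicate 2 (1.66, 0.0628) or ESX1 replicate 1 (1.52, 0.08). Of 16 markers of testis somatic cells 9 were tested, with a summed level of 42 to 52.3 normalized CPM in WT, 58.3 to 68.8 in NC and 55 to 95.6 in ESX1. Of these 9, 1 was called higher between ESX1 and NC, 2 between ESX1 and WT and 1 between NC and WT, with 0 lower in each. The shares of all tested genes were 1.08%, 6.78% and 3.12% higher and 0.699%, 4.77% and 2.15% lower. The Sertoli cell gene SOX9 was called higher in ESX1 than in NC (1.83, adjusted p = 0.012), and this was lost without NC replicate 2 (1.52, 0.0736) or ESX1 replicate 1 (1.57, 0.0671). SOX9 stood at 2.45, 1.24 and 4.45 normalized CPM in WT, NC and ESX1. Between ESX1 and WT it was not called (0.86, adjusted p = 0.0953 in edgeR). Against WT, the steroidogenic gene CYP11A1 was called higher in ESX1 (2.14, adjusted p = 0.0199) and in NC (2.03, adjusted p = 0.0392), and the endothelial gene VWF was called higher in ESX1 (1.44, adjusted p = 3.82e-05 in edgeR). CYP11A1 rested on 8 counts over the WT group and reached the filter's minimum in 0 WT, 2 NC and 2 ESX1 samples, and its call was lost without WT replicate 2 (2.09, 0.0618), WT replicate 3 (2.13, 0.0617) or ESX1 replicate 1 (1.75, 0.115) in ESX1. In NC it was lost without WT replicate 1 (2.06, 0.0729), WT replicate 2 (1.99, 0.111), WT replicate 3 (2.03, 0.11), NC replicate 1 (1.56, 0.213), NC replicate 3 (2.14, 0.0762) or ESX1 replicate 2 (2.02, 0.0507). The Leydig cell genes HSD3B2 and INSL3 had no count. The part of these markers in the results was not tested.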

How the data were processed

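RNA of 9 TCam-2 samples (WT, NC and ESX1, 3 replicates each, grouped by the sample labels) had been sequenced by the authors as paired reads from stranded, ribosome-depleted libraries. The deposited counts are raw fragment counts per gene over exons. Per the file headers they were made with featureCounts 1.5.2 on GENCODE 26 without a strand option. The submitters' processing notes name featureCounts 1.6.5, HISAT2 2.0.5, GRCh38 and DESeq2. The deposited log2 values were normalized by the authors with DESeq2 and end at a floor of 4.18. Totals of 5212804 to 10644408 counts limit the genes with few counts, and exact intervals on ratios cover counting error only.

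The subunit genes and all gene lists were chosen with earlier results of these data known. Counts were fitted over all 9 samples with edgeR 4.0.16 (R 4.3.3, TMM factors, filterByExpr by group, quasi-likelihood test), with Benjamini-Hochberg correction over 18452 genes. A gene was called at an adjusted p below 0.05 if it changed at least 2-fold. The fits were tested on simulated data. Genes under the filter were compared by exact permutation tests. The named genes were the 7 subunit genes, up to 4 called genes of each list and contrast with the largest change, genes within 1 Mb of GRIN2B, genes that overlap a subunit gene, and the 10 genes most like GRIN2B by Pearson correlation. Some of the named genes are not reported here. Alternatives were RLE factors, DESeq2 1.42.0, other filters, 6 samples only, a replicate block, limma 3.58.1 on the log2 values and leaving out each sample. Promoter windows came from RefSeq (GRCh38.p14). Guide matches near GRIN2B were not analysed here.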

Additional observations from a re-analysis of the deposited data

How the results depend on the processing

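For GRIN2B, limma on the authors' log2 values, which compress low levels, gave smaller differences: 3.41 for ESX1 against NC, 4.22 for ESX1 against WT and 0.80 (adjusted p = 0.00294) for NC against WT, the last then below a 2-fold change. The other alternatives moved both differences of ESX1 by less than the spread between the ESX1 replicates (SD of the log2 level). For NC against WT they left the call unchanged. No subunit gene other than GRIN2B was called between ESX1 and NC under any alternative run. The count of called members against WT was 1 in ESX1, and became 2 without the low-count filter (GRIN2A was added), 0 with at least 10 counts in every sample, 0 with limma and 0 to 3 when a sample was left out. In NC the count was 2, and became 1 with at least 10 counts in every sample, 0 with limma and 1 to 2 when a sample was left out. GRIN2C had 8 and 4 counts in WT replicates 2 and 3, so the 10-count filter removed it untested in both contrasts. The higher counts in ESX1 hold GRIN2A, called in 7 of 7 leave-out fits that tested it, and GRIN3B. GRIN2A reached the main filter's minimum in 0 WT, 0 NC and 2 ESX1 samples. These added calls give no support to a change of the family. Over the 5 pathway lists (other glutamate receptors, scaffolds, supply, REST), 3 genes were called between ESX1 and NC. This became 1 with at least 10 counts in every sample, 0 with limma and 0 to 3 when a sample was left out. PTPN5 and SLC1A2 had fewer than 10 counts in some samples, so the 10-count filter removed them untested and its lower count was fixed in advance. Of all tested genes 1.08% were called higher and 0.699% lower in the main fit. Against WT the 19 calls in ESX1 became 10 with the 10-count filter, which also removes genes untested, and 5 with limma. The 7 calls in NC became 2 with limma. Of all tested genes 6.78% were called higher and 4.77% lower in ESX1, and 3.12% and 2.15% in NC.

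Some differences of members that were not called changed sign when a sample was left out. GRIN2C ranged from −0.27 to 0.47 for ESX1 against NC. GRIN2D ranged from −0.69 to 0.07 for ESX1 against NC, from −0.53 to 0.23 for ESX1 against WT and from −0.05 to 0.40 for NC against WT. GRIN3A ranged from −0.17 to 0.42, from −0.01 to 0.26 and from −0.29 to 0.31 in the same order. The cause was not tested.

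The replicate numbers gave weak or no pairing of the samples: correlations of same-numbered deviations were between −0.0296 and 0.193. For ESX1 against NC and ESX1 against WT, the same-numbered sample was the closest match for numbers 1 and 2 and not for number 3. For NC against WT it was the closest for number 2 only. Whether the numbers pair the samples was not settled. With a replicate block, 358, 2109 and 1003 genes were called for ESX1 against NC, ESX1 against WT and NC against WT, in place of 328, 2131 and 973. GRIN1 and GRIN2A are limited by depth, with fewer than 10 counts in most samples.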
